A study of Mus musculus with 10 samples.

Results

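The caveolin and cavin genes encode the coat of caveolae, and 5 of them, Cav1, Cav2, Cavin1, Cavin2 and Cavin3, were followed through the RNA-seq of MB-3-treated mouse ES cells. They were taken as a gene family and found by symbol among the 30677 Ensembl genes with any read in the count table. The family was chosen on its levels and its MB-3 against DMSO differences in these same libraries, with and without the replicate letter as a block, so those differences are given as a description and support nothing. TNGA cells, an ES line with GFP at a single Nanog allele, grew in serum and LIF for 48 hours with the Kat2 inhibitor MB-3 at 100 μM or with DMSO, and both groups received the same 0.1% of DMSO. Each group has 3 RNA-seq libraries, lettered A, B and C, all from this single line. The labels give triplicate treatment but not separately thawed or passaged cultures, so the spread between libraries may be partly technical. H3K9ac peak lists of the same treatments are positions on another genome build and were not used here. The paper's list of genes nearest to promoter peaks found only with DMSO was not used either.

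Caveolae are flask-shaped pits of the plasma membrane, abundant in adipocytes, endothelium, muscle and fibroblasts, where they buffer membrane tension and gather lipids and receptors. Caveolins are hairpin proteins inserted in the membrane. Cavins are cytoplasmic proteins that assemble on caveolin-rich membrane and give the pit its shape, and without Cavin1 or, outside muscle, without Cav1 no caveolae form.

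Total counts ran from 42270312 to 51137896 per library, so that 1 CPM, the read count scaled for normalized library size, stands for 42.9 to 50.2 reads. MB-3 acts on the Kat2a protein, and mean Kat2a mRNA levels (SD, n = 3) were 130.4 ± 7.32 CPM for DMSO against 129.6 ± 4.62 for MB-3, a difference within the spread of the libraries. The 8 ES cell markers were abundant in both groups, with summed levels of 4475.6 to 4965.7 CPM with DMSO and 4472.9 to 4798.0 CPM in MB-3. The label of ES cells therefore matched its markers.

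The sequence just upstream of a gene is part of its promoter, and a link between this sequence and the level of a gene was not tested. It is printed for the family's most abundant gene, its main caveolin and its undetected cavin. The 250 bases before the GENCODE M21 start are shown for these genes on GRCm38.p6, 5′ to 3′ on the strand of the gene, with CG pairs in capitals. Cavin1 is on the minus strand at chr11:100970888-100971137, Cav1 on the plus strand at chr6:17306085-17306334 and Cavin2 on the plus strand at chr1:51288876-51289125.
Cavin1: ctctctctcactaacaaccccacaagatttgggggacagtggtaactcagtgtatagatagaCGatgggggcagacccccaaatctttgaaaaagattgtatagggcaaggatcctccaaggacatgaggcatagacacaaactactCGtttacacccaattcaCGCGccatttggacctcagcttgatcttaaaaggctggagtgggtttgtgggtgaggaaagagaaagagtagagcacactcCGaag
Cav1: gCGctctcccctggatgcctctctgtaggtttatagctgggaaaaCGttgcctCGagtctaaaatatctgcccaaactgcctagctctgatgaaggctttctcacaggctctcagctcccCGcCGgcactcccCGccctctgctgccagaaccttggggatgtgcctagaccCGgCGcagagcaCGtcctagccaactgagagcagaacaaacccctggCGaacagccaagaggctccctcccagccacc
Cavin2: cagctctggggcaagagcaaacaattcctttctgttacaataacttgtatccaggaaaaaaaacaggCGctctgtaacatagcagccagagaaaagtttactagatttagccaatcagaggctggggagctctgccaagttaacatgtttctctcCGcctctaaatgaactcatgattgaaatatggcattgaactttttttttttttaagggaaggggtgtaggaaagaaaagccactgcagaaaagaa
Cav1 holds 10 CG pairs, Cavin1 5 and Cavin2 2, against a median of 8 over 21938 protein-coding genes. Cav2 has 10 and Cavin3 6. The letters GGGCGG of an SP1 GC box, searched on both strands, stand before Cav1, Cav2 and Cavin3, and before 39.0% of all 21938 genes. The TEAD core GGAATG was found before Cavin3, overlapping there with a GC box, and before 11.5% of all genes. An AP-1 site, TGANTCA, stands before Cav2 and before 6.05% of all genes, and the TATA box letters TATAAA before Cav1, on the opposite strand, and before 11.5%. The CArG box bound by SRF was found before none of the 5 genes and before 1.33% of all. No searched letters stand in the windows of Cavin1 and Cavin2.

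Cav1 encodes caveolin 1, the principal caveolin outside muscle (ENSMUSG00000007655, GRCm38 chromosome 6 from 17306335 to 17341452). It was a rare transcript. In DMSO it had 98, 30 and 99 reads for replicates A, B and C, or 2.04, 0.598 and 2.08 CPM. In MB-3 it had 37, 16 and 47 reads, or 0.743, 0.364 and 1.10 CPM. Replicate B was the lowest library of each group, and the groups overlapped because the DMSO library B lay below the MB-3 libraries A and C. The log2 fold change of MB-3 against DMSO was -1.09 with a standard error of 0.43.

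Cav2 encodes caveolin 2, which joins caveolin 1 in mixed oligomers and depends on it to reach the plasma membrane (ENSMUSG00000000058, chromosome 6 from 17281185 to 17289115). Its gene lies upstream of Cav1 on the same strand, with 17219 bp between them. The reads were too few to resolve a moderate difference, with 14, 10 and 23 for DMSO (A, B and C in turn) and 9, 12 and 15 for MB-3. In CPM these were 0.291, 0.199 and 0.482 in DMSO and 0.181, 0.273 and 0.350 in MB-3. The groups overlapped, and the log2 fold change of -0.28 was smaller than its standard error of 0.42.

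Cavin1, formerly Ptrf, encodes the cavin on which the whole coat is built (ENSMUSG00000004044, chromosome 11 from 100956733 to 100970887). It was the family's most abundant transcript, with 1122, 1164 and 1405 reads in DMSO and 632, 601 and 689 in MB-3 for replicates A, B and C. DMSO libraries were at 23.3, 23.2 and 29.5 CPM. MB-3 libraries were at 12.7, 13.7 and 16.1 CPM. Every MB-3 library was below every DMSO library, and replicate C was the highest in each group. The means were 25.3 ± 3.59 and 14.2 ± 1.73 CPM (SD, n = 3). The log2 fold change was -0.84 with a standard error of 0.11, or 44.2% less Cavin1 mRNA by the fit.

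Cavin2, formerly Sdpr, encodes a cavin that bends membrane and is prominent in endothelium (ENSMUSG00000045954, chromosome 1 from 51289126 to 51302960). It was at 0 reads in all 3 DMSO libraries and at 2, 1 and 0 reads for MB-3 (A, B and C in turn). A count of 0 allows up to 3 reads, or 0.0598 to 0.0700 CPM depending on the library, for counting error only. All libraries were at or under that limit, so Cavin2 was not detectable at this depth and no fold is given.

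Cavin3, formerly Prkcdbp, encodes a cavin that binds protein kinase C delta and couples caveolae to signalling (ENSMUSG00000037060, chromosome 7 from 105480083 to 105482300). It had 7, 20 and 17 reads in DMSO and 22, 10 and 20 in MB-3. The corresponding levels were 0.145, 0.399 and 0.357 CPM with DMSO and 0.442, 0.228 and 0.466 CPM in MB-3. The lowest library was replicate A in DMSO and replicate B in MB-3, so the 2 groups did not share an order. Its log2 fold change was 0.33 with a standard error of 0.42. A gene model, Gm45667, overlaps it on the opposite strand, and since the use of strand in counting is not given in the sources used here, some of its few reads may belong there. Gm45667 itself is not among the genes with any read, and whether the annotation used for counting held it is not given.

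**Figure D1:**
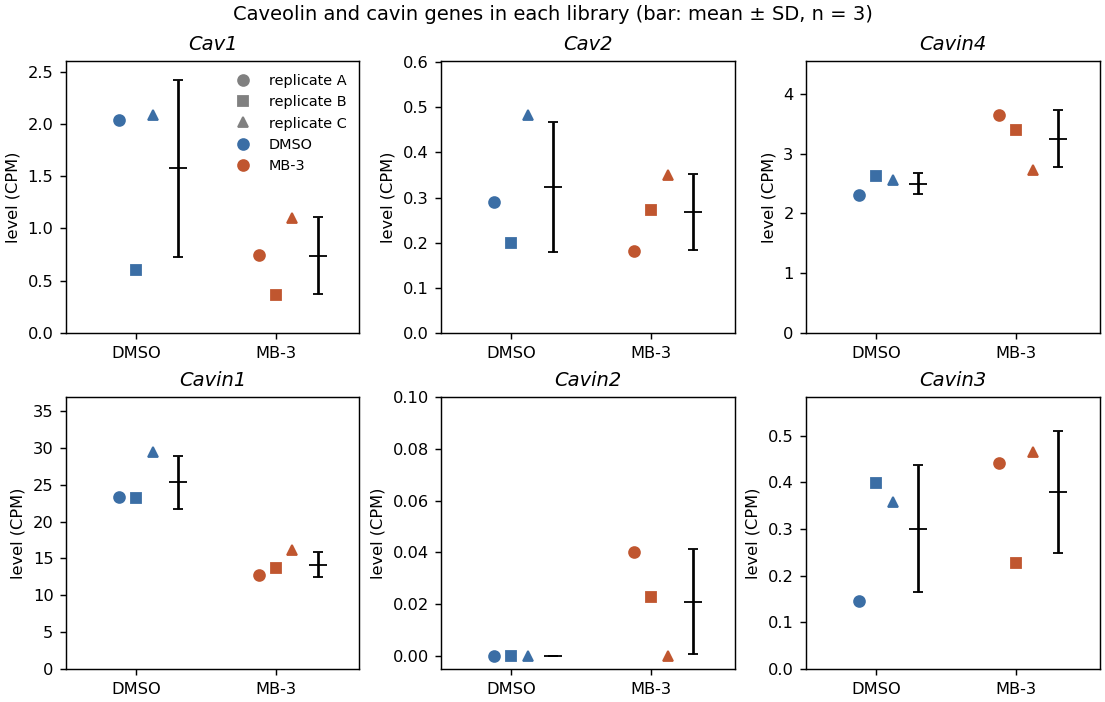
Level in CPM of the caveolin and cavin genes in each of the 6 libraries, by treatment on the horizontal axis, with symbols for the replicate letter and a bar for the mean ± SD (n = 3). The Cavin1 libraries separate by treatment, from 23.2 to 29.5 CPM with DMSO and from 12.7 to 16.1 CPM in MB-3, whereas in Cav1 the DMSO library B at 0.598 CPM lies among the MB-3 libraries.

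Cavin2 had too few reads to pass the filter on low counts, though it entered the alternative fit without that filter. The other 4 genes were tested. With treatment as the only term in edgeR's quasi-likelihood fit, and adjustment over all 20027 genes tested, 1 of the 4 was below the threshold of 0.05, Cavin1, which was lower in MB-3. Over all genes tested 0.205% were below it and 0.105% were below it and lower in MB-3. Cavin1 was also the single member whose groups did not overlap, as for 15.6% of all genes tested, 7.37% with MB-3 the lower. With the replicate letter as a block, Cav1 (log2 fold change -1.08, standard error 0.23) joined Cavin1 (-0.84, standard error 0.06) below the threshold, in a fit where 7.12% of all genes were below it and 3.90% were also lower in MB-3. As the family was chosen with these contrasts known, nothing is read from the counts.

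Cavin1 was the 1 member below the threshold with RLE size factors (0.195% of all genes), with no filter on low counts (0.632%) and by DESeq2 (1.11%). Leaving out DMSO replicate A (0.0147% of all genes), DMSO replicate C (0.0246%) or MB-3 replicate C (0.304%) also kept it there. It was above the threshold when either the A or the B library of MB-3 was left out, with log2 fold changes of -0.77 and -0.82. In those 2 edgeR fits 0 genes of the whole table (0.0%) were below it, and 1440 and 1716 genes had an unadjusted p under 0.05. Both Cav1 and Cavin1 were below it without DMSO replicate B (2.55%), where Cav1 had a log2 fold change of -1.48. In bulk libraries, fewer cells that express a gene and less of its RNA per cell cannot be told apart.

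**Figure D2:**
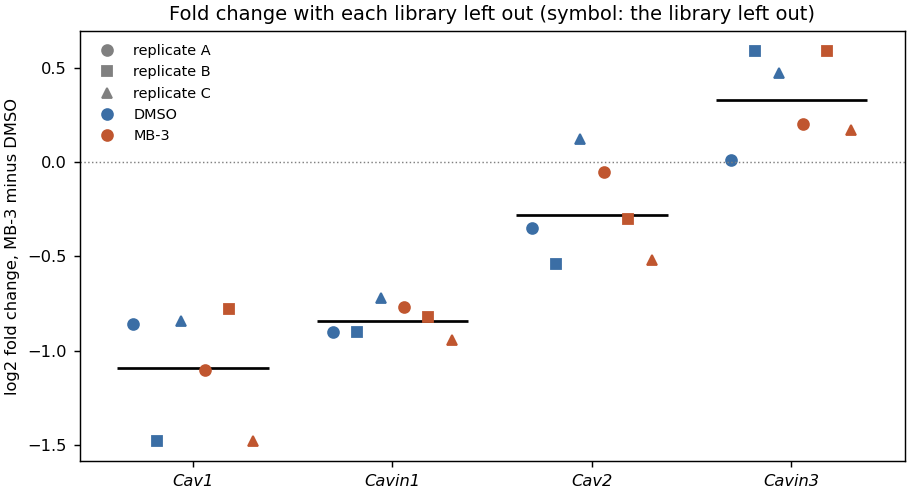
Log2 fold change of MB-3 against DMSO for the 4 tested members with each library left out in turn (symbol and colour: the library left out) beside the value from all 6 libraries (black line). Cavin1 stayed between -0.94 and -0.72 and Cav1 between -1.48 and -0.78, while Cav2 crossed 0, from -0.54 to 0.12.

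Compared per length, as CPM per kilobase of exon, Cavin1 stood well above the rest of the family. It was at 3.54 to 8.22 CPM per kilobase over the 6 libraries, and it made up 86.4% to 93.2% of the summed level of the 5 genes in a library. Cav1 followed at 0.106 to 0.603 CPM per kilobase, Cavin3 at 0.0875 to 0.281 and Cav2 at 0.0542 to 0.145. The ranges of Cav1 and Cavin3 overlapped, as did those of Cavin3 and Cav2, so only the place of Cavin1 above them and of Cavin2 below them lay outside the spread of the libraries.

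The ratio of Cavin1 to Cav1 mRNA was highest in replicate B of both groups. There was 11.0, 37.3 and 13.6 times as much Cavin1 as Cav1 per kilobase in DMSO replicates A, B and C, and 16.4, 36.1 and 14.1 times as much in MB-3. The 2 B libraries stood apart, each above 36-fold, and the A and C libraries of both groups lay between 11.0 and 16.4. Cav1 exceeded Cav2 per kilobase in every library, by 2.91 to 6.78 times in DMSO and by 1.29 to 3.98 times in MB-3.

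**Figure D3:**
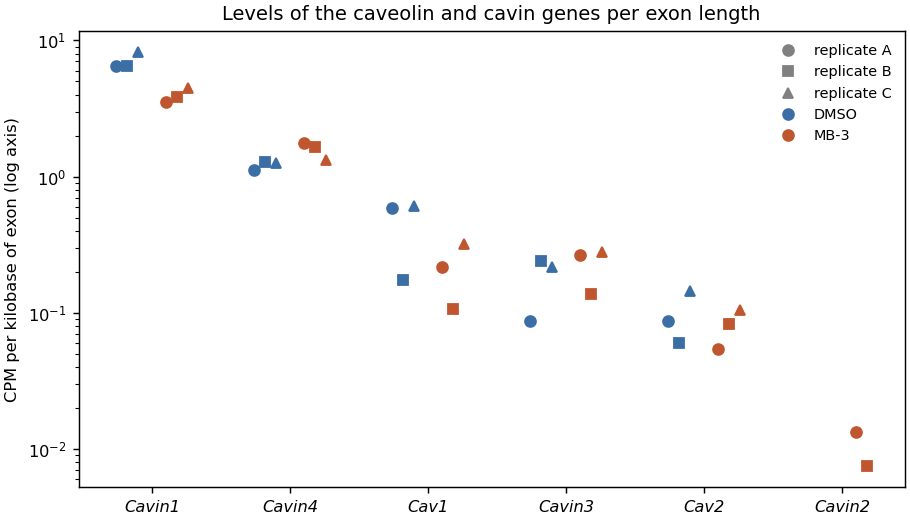
CPM per kilobase of exon, on a log axis, of the caveolin and cavin genes in each library (blue DMSO, orange MB-3, symbols for the replicate letter). Libraries at 0 reads, 4 of them for Cavin2, are not drawn. Cavin1 lies above every other gene in all 6 libraries.

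The remaining genes of the 2 families are known from muscle. Cav3, the muscle caveolin, is not among the genes with any read and is not analysed here. Cavin4, the muscle cavin, formerly Murc, was detected at 2.31, 2.63 and 2.56 CPM with DMSO and at 3.64, 3.39 and 2.73 CPM in MB-3. The groups did not overlap, as for 8.22% of all genes tested with MB-3 the higher. The log2 fold change of 0.38 (standard error 0.15) did not pass the test (Benjamini-Hochberg adjusted p = 0.379 in edgeR). Per length, Cavin4 lay between Cavin1 and Cav1, at 1.12 to 1.77 CPM per kilobase, and in every library it was above Cav1, by 1.90 to 15.6 times.

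Of the genes for proteins that finish a caveola, none passed the test. The list holds the EHD ATPases that stabilise the caveolar neck, the F-BAR proteins of the Pacsin family, dynamin 2, the actin crosslinker filamin A and the receptor Ror1, which binds caveolins and cavins. All 10 were tested and 0 were called by edgeR, 2 had an unadjusted p under 0.05 and DESeq2 called 1, Ror1. Over all genes tested, 10.9% had an unadjusted p under 0.05 in edgeR and DESeq2 called 1.11%, shares against which this and the following lists can be read. Their median log2 fold change was -0.05, beside -0.001 over all genes tested. Ehd2, the ATPase at the caveolar neck, was at 3.01, 2.71 and 3.40 CPM with DMSO and 2.61, 2.53 and 2.61 CPM in MB-3. Its groups did not overlap, as for 7.37% of all genes tested with MB-3 the lower. The log2 fold change of Ehd2 was -0.23 (standard error 0.15, Benjamini-Hochberg adjusted p = 0.588 in edgeR). Pacsin2, which helps shape the neck, was at 84.0 ± 6.67 and 77.2 ± 1.89 CPM (SD, n = 3), and its log2 fold change was -0.12 with a standard error of 0.06.

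Ror1 had a log2 fold change of the opposite sign to that of Cavin1, whose protein it binds. It was at 3.07, 2.95 and 2.75 CPM with DMSO and at 4.06, 4.51 and 5.01 CPM in MB-3. All 3 MB-3 libraries lay above the highest DMSO library, as for 8.22% of all genes tested. The log2 fold change was 0.63 with a standard error of 0.13, which did not pass the test without the block (Benjamini-Hochberg adjusted p = 0.0880 in edgeR) and passed it in 4 of the 10 other fits.

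Of 15 receptors, kinases and transporters described in caveolae, 14 were tested and 0 were called by edgeR, with 2 at an unadjusted p under 0.05 and 1 call, Src, by DESeq2. The 2 of 14 are near the 10.9% of all genes. Their median log2 fold change was -0.04. Src, the kinase that phosphorylates caveolin 1, was at 28.3, 27.7 and 31.6 CPM with DMSO and 22.6, 21.8 and 25.6 CPM in MB-3. Its groups did not overlap, as for 7.37% of all genes tested with MB-3 the lower. The log2 fold change was -0.32 (standard error 0.08; Benjamini-Hochberg adjusted p = 0.150 in edgeR). Flotillins and stomatins form other membrane scaffolds, and 0 of 5 tested were called by edgeR, with 1 at an unadjusted p under 0.05 and 0 calls by DESeq2. Flot1 was at 27.0 ± 3.04 and 24.2 ± 1.13 CPM and Flot2 at 71.0 ± 7.14 and 62.7 ± 4.80 CPM (SD, n = 3), with log2 fold changes of -0.16 and -0.18 and standard errors of 0.08 each. In both genes the groups overlapped.

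For the clathrin coat, the other main coat of endocytosis, 0 of 10 tested genes were called by edgeR or DESeq2, with 2 at an unadjusted p under 0.05. Their log2 fold changes ran from -0.19 in Cltb, a clathrin light chain, to 0.26, and the median standard error over all genes was 0.10. Among the regulators SRF, MRTF, YAP, TAZ and TEAD, which act on cytoskeletal genes, 0 of 9 were called by edgeR or DESeq2, with 1 at an unadjusted p under 0.05. That gene was Wwtr1, which encodes TAZ, at 36.4 ± 4.44 and 29.8 ± 2.52 CPM (SD, n = 3) with overlapping groups and a log2 fold change of -0.29 (standard error 0.09).

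**Figure D4:**
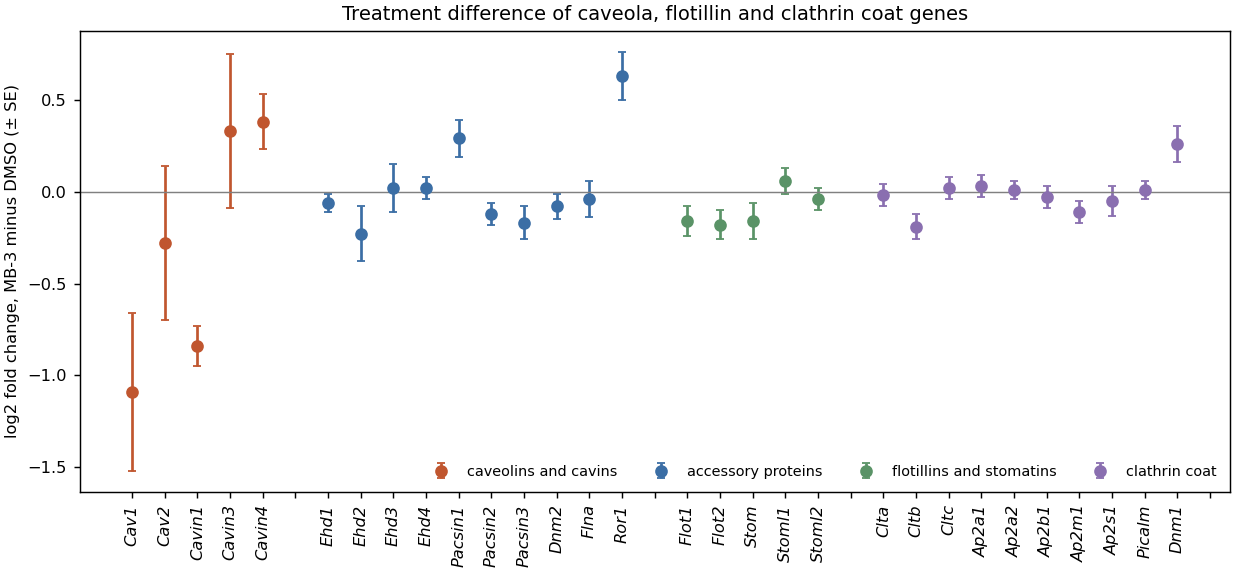
Log2 fold change of MB-3 against DMSO (points, with bars of 1 standard error) for the tested caveolin and cavin genes, the caveolar accessory proteins, the flotillins and stomatins and the clathrin coat. Cav1 (-1.09) and Cavin1 (-0.84) lie lowest and Ror1 (0.63) highest, while the clathrin coat runs from -0.19 to 0.26.

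The pattern of Cavin1 over the 6 libraries was nearest to that of Vim, which encodes the intermediate filament vimentin. Likeness was measured as the root mean square difference between profiles of log2(CPM + 0.1), each centred on its own mean, over 15958 genes of at least 1 mean CPM. Vim differed from Cavin1 by 0.076 on the log2 scale, Efnb1, which encodes the signalling ligand ephrin B1, by 0.094 and Hebp2, which encodes a heme-binding protein, by 0.102, against a median of 0.45 over all these genes. The named genes have the smallest differences of all, so they lie below the median by selection. The profile of Cavin1 also holds the MB-3 difference on which the family was chosen. Vim was at 119.0, 115.1 and 152.6 CPM with DMSO and 71.9, 73.5 and 76.9 CPM in MB-3. The nearest profiles to Cav1 were those of Tgfb2, a TGF-β ligand (0.192), Thbs1, which encodes the matrix protein thrombospondin 1 (0.221), and Lamb3, a laminin chain (0.242), against a median of 0.83. Tgfb2 was at 3.28, 1.30 and 4.97 CPM with DMSO and 1.81, 0.956 and 2.24 CPM in MB-3, low in replicate B of each group as Cav1 was. Tgfb2 and Thbs1 each overlap a gene on the opposite strand.

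Within the family, Cav1 and Cavin1 differed from each other by 0.61 on the same scale, Cav1 and its chromosomal neighbour Cav2 by 0.65, and Cav2 and Cavin1 by 0.39. The largest difference, 1.00, was between Cav1 and Cavin3. All profiles share the same 6 libraries, and those of Cav2 and Cavin3 rest on 7 to 23 reads a library.

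**Figure D5:**
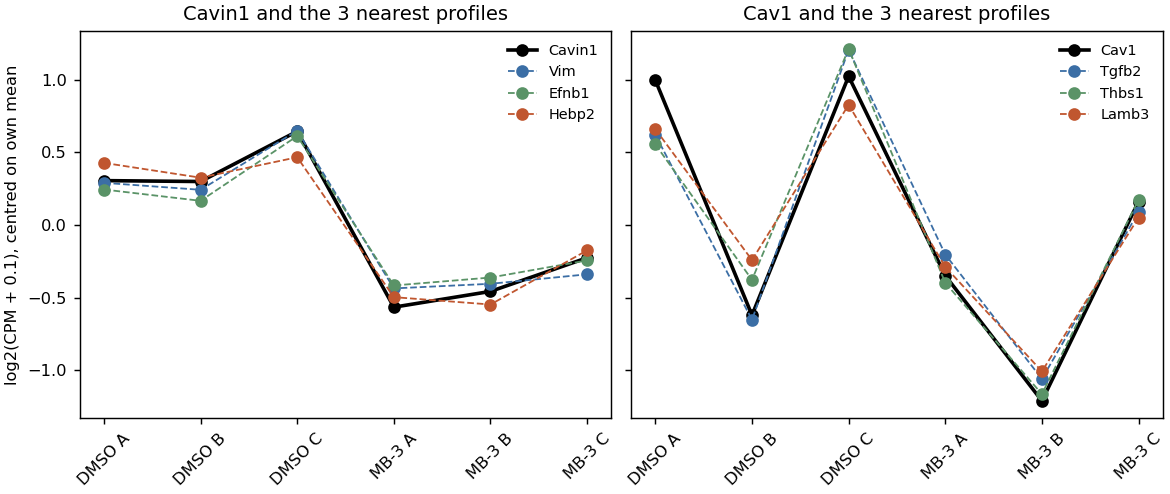
Profiles of log2(CPM + 0.1), centred on each gene's mean, over the 6 libraries for Cavin1 (left) and Cav1 (right) with the 3 genes nearest to each. Cavin1 and its neighbours split by treatment, whereas Cav1 and its neighbours dip in replicate B of each group as well.

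On chromosome 11, the 4 tested genes within 100 kb of Cavin1 all had log2 fold changes below 0, from -0.44 to -0.12, and 0 were called by edgeR or DESeq2, with 2 at an unadjusted p under 0.05 in edgeR, beside 10.9% of all genes. The nearest is Stat3, the transcription factor that carries the LIF signal, at 79.1 CPM with DMSO and 71.9 CPM with MB-3 on average (log2 fold change -0.14, standard error 0.05). Of the 4 tested genes near Cavin3, 0 were called by edgeR or DESeq2, with 1 at an unadjusted p under 0.05.

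Among markers of other cell types, the summed fibroblast level was also lower in every MB-3 library than in any DMSO library, and the other summed levels overlapped between groups. The fibroblast list summed to 6.58 to 9.27 CPM with DMSO and 5.55 to 5.90 CPM in MB-3. Of its 8 genes 6 were tested and 0 were called by edgeR, with 2 at an unadjusted p under 0.05, beside 10.9% of all genes, and 1 call, Col1a2, by DESeq2. Col1a1 and Col1a2, fibrillar collagen chains, had log2 fold changes of -1.32 and -1.27 with no overlap between groups, as for 7.37% of all genes with MB-3 the lower (Benjamini-Hochberg adjusted p = 0.145 and 0.106 in edgeR). The other 4 tested fibroblast genes overlapped between groups, with log2 fold changes of -0.36 in Pdgfra, -0.13 in Col3a1, -0.11 in Thy1 and -0.05 in Dcn, while Lum and Postn were at or near 0.

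The smooth muscle list summed to 85.4 to 175.0 CPM with DMSO and 71.3 to 98.0 CPM in MB-3, with 0 of 6 called by edgeR or DESeq2 and 3 at an unadjusted p under 0.05, beside 10.9% of all genes. Those 3 encode actin-binding or contractile proteins, Tagln (log2 fold change -1.41), Cnn1 (-0.82) and Acta2 (-0.52). The rest of the list had log2 fold changes of 0.19 in Myh11, 0.01 in Des and -0.04 in Smtn. Acta2 ran from 19.0 to 40.6 CPM and Tagln, which overlaps genes on the opposite strand, from 9.24 to 79.9 CPM over the 6 libraries, whereas the smooth muscle myosin Myh11 did not exceed 1.31 CPM. Simple epithelium markers summed to 249.7 to 475.6 CPM with DMSO and 196.2 to 303.9 CPM in MB-3, with 0 of 6 called by edgeR or DESeq2. The 3 at an unadjusted p under 0.05, beside 10.9% of all genes, were the keratins Krt19 (log2 fold change -1.58), Krt8 (-1.22) and Krt18 (-0.92). Log2 fold changes in the remainder of that list were -0.24 in Krt7, -0.18 in Cldn6 and -0.08 in Cldn4. Krt8 and Krt19 were called with no filter on low counts, Krt8, Krt18 and Krt19 without DMSO replicate B, and Krt19 also without MB-3 replicate C. Tagln, Col1a1 and Col1a2 were likewise called with no filter and without DMSO replicate B. Acta2, Cnn1, Sparc and Col4a1 were called without DMSO replicate B. Over all genes, 0.632% were called with no filter, 2.55% without DMSO replicate B and 0.304% without MB-3 replicate C.

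Extraembryonic endoderm markers summed to 157.1 to 237.6 CPM with DMSO and 144.5 to 184.6 CPM in MB-3, with 0 of 7 tested called by edgeR or DESeq2. Most of the sum came from Lamb1, at 72.2 to 93.5 CPM over all libraries, and Sparc, at 55.4 to 112.7 CPM. The transcription factors of the list were low. Gata4 did not exceed 1.02 CPM, Gata6 0.54 CPM and Sox7 0.379 CPM, and Sox17 and Foxa2 did not pass the filter. The 2 at an unadjusted p under 0.05 encode matrix proteins, Sparc (log2 fold change -0.49) and Col4a1 (-0.47), which overlaps Col4a2 on the opposite strand. The edgeR fit blocked on letter called 2 fibroblast, 3 smooth muscle, 4 simple epithelium and 2 extraembryonic endoderm markers, all lower in MB-3, and 1 endothelial marker, higher in MB-3, beside 7.12% of all genes. The adjusted p in that fit was 1.08e-15 for Krt8 and 3.54e-15 for Tagln, and in each letter both were lower in the MB-3 library than in the DMSO library. The part of these markers in the differences of Cav1 and Cavin1 was not tested.

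The endothelial list summed to 94.7 to 105.6 CPM with DMSO and 94.0 to 104.7 CPM in MB-3, mostly from Pecam1, which ES cells also express. Tek, an endothelial receptor kinase, ran from 12.6 to 17.7 CPM and Vwf, which encodes von Willebrand factor, from 6.78 to 9.63 CPM over the 6 libraries, while the cadherin gene Cdh5 did not exceed 0.252 CPM. Of its 6 tested genes 0 were called by edgeR or DESeq2, with 1 at an unadjusted p under 0.05, Vwf, at a log2 fold change of 0.28. The adipocyte list summed to at most 0.332 CPM in any library, and none of its genes passed the filter.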

How the data were processed

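RNA-seq of polyadenylated RNA was analysed for 3 DMSO and 3 MB-3 libraries. The authors trimmed single-end reads, mapped them with Bowtie on mm10 and used GenomicAlignments over exons, and the deposited values are raw read counts by Ensembl identifier (versions, annotation release and strand use are not given in the sources used here). Rows without reads in any library were dropped, which left 30677 genes, with 0 unnamed rows and 0 unused columns. Symbols, positions and exon lengths came from GENCODE M21 on GRCm38, the assembly of mm10, with 30540 identifiers matched.

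Genes were kept by filterByExpr (20027), normalized by TMM and compared with edgeR 4.0.16 in R 4.3.3 (glmQLFit, glmQLFTest, treatment as the only term, Benjamini-Hochberg adjustment over all genes tested, threshold 0.05). Standard errors of edgeR fits are the absolute log2 fold change divided by the square root of the quasi-likelihood F statistic. The authors' tool was DESeq2, here an alternative (1.42.0). Levels are counts divided by the normalized library size (CPM), and per kilobase by the union of exons. Intervals and limits cover counting error only. The procedure was also run on simulated counts that carry no shared effect of the replicate letter, and nothing stated here rests on that run. Figures were drawn with matplotlib 3.10.9.

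The members and gene lists were chosen with earlier results of these data known. Genes named were the 5 members, the rest of both families, Ehd2, Pacsin2, Flot1, Flot2, Kat2a, list genes below the threshold in the fit with treatment only or with the replicate letter (at most 4 a list, some given by count only) and the 3 nearest profiles of members of at least 1 mean CPM. Pacsin1, Dnm1, Pecam1, Cdh5, Lum, Postn, Col3a1, Dcn, Thy1, Pdgfra, Tek, Myh11, Des, Smtn, Krt7, Cldn4, Lamb1, Gata4, Gata6, Sox7, Sox17, Foxa2, Stat3, Cd36 and Gm45667 were named after their values were seen. The letters were checked for pairing by the correlation of deviations from the group means, which was 0.098, 0.261 and 0.213 for A, B and C. As that of A is not over 0.1, they were not taken as pairs, and the planned comparison of letter C with letter B was not made. Further alternatives were RLE size factors, no filter on low counts and each library left out. H3K9ac peak lists, on mm9, were not used.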

Additional observations from a re-analysis of the deposited data

How the results depend on the processing

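Of the 5 members, 1 was called with treatment as the only term, and also with RLE size factors, without the filter and by DESeq2. With the letter as a replicate block 2 were called, Cavin1 and Cav1 (log2 fold change -1.08), where 1425 genes were called in all, against 41. The block was not taken as the design, although each library correlated best with the library of its own letter. Leaving out each library gave 0 to 2 called members, 0 without MB-3 replicate A (Cavin1 at -0.77) or B (-0.82). The cause was not tested. The log2 fold change of Cav2 ran from -0.54 without DMSO replicate B to 0.12, reversed, without DMSO replicate C, and that of Cavin3 was 0.01 without DMSO replicate A. The accessory list went from 0 calls to 1 (Ror1) with the block, without the filter and with DESeq2, and ran from 0 to 1 with a library left out. The receptor list had 1 call (Src) with the block and with DESeq2 and 0 to 2 (Src and Cd36) with a library left out. With the block there was 1 call each among the flotillins (Flot2), the clathrin coat (Cltb) and the regulators (Wwtr1), and leaving out a library gave 0 to 1 for the regulators. Each of these list calls under leaving out came without DMSO replicate B, a fit with 520 calls. No other count of these 5 lists moved, and per-kilobase levels by the longest transcript kept within 1 SD. Alternatives of the comparison of letters were not run. Depth limits Cav2, Cavin2 and Cavin3.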

Other observations

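Cd36, a fatty acid transporter found in caveolae, did not pass the filter on low counts with all 6 libraries and so was not among the 20027 genes tested. It had 11, 7 and 13 reads for DMSO (A, B and C in turn) and 2, 2 and 1 for MB-3. Every MB-3 library was below every DMSO library, as for 7.37% of the genes tested. Without the filter its log2 fold change was -2.46 with a standard error of 0.71 (Benjamini-Hochberg adjusted p = 0.139 in edgeR). It also passed the filter in 4 of the 6 fits that leave out a library, only through the reads of its DMSO libraries. Entry into those fits thus depended on the difference they test, so nothing is read from their adjusted p. In edgeR that value ran from 0.0373, a call, without DMSO replicate B to 0.511 without MB-3 replicate A. It was chosen after its values were seen.

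Pacsin1 and Dnm1, better known as the neuronal members of the Pacsin and dynamin families, were both higher in all 3 MB-3 libraries than in any DMSO library, with log2 fold changes of 0.29 and 0.26. Neither passed the test (Benjamini-Hochberg adjusted p = 0.291 and 0.339 in edgeR), and groups that do not overlap in that direction were found for 8.22% of all genes tested. Both were chosen after their values were seen.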
